A study of Homo sapiens with 6 samples.

Results

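The genes described here are 10 that serve amino acid supply or belong to the ATF4 response: ATF4, DDIT3, TRIB3, SLC7A5, SLC3A2, SLC1A5, ASNS, PHGDH, PSAT1 and VLDLR. Each was measured by the probe set that carries its symbol and no other, with the brightest kept where a gene had more than 1. All 10 were found among 18377 genes measured on 6 arrays. RNA came from MCF10A-HER2/3 cells, a derivative of the human mammary epithelial line MCF10A, kept for 15 days in three-dimensional culture. The medium was DMEM/F12 with EGF, insulin, cholera toxin, hydrocortisone and horse serum. All cells carried a lentiviral vector that responds to doxycycline, and all groups received doxycycline from the day after seeding, renewed every 2 days. The vector expressed CTRL miR, SHP2 miR1 or SHP2 miR2, with 2 arrays in each group. Whether a line was 1 clone or a pool, and whether replicates were separate cultures, is not given in the sources used here, so every p-value here rests on the spread among these arrays, which could be purely technical. SHP2 is a tyrosine phosphatase, encoded by PTPN11, that carries signals from receptor tyrosine kinases towards RAS and ERK.

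ATF4 is a transcription factor whose protein is made in larger amounts when the initiation factor eIF2 is phosphorylated, as happens when amino acids run short or the endoplasmic reticulum is stressed. It pairs with C/EBP proteins on C/EBP-ATF response elements and induces genes for amino acid uptake and synthesis. Because this control acts largely on translation, the level of the ATF4 transcript need not follow that of its protein, and arrays measure the transcript only. In epithelial cells SLC7A5 (LAT1) imports leucine and other large neutral amino acids as a dimer with the glycoprotein SLC3A2 (CD98), in exchange for glutamine, which SLC1A5 (ASCT2) can bring in. VLDLR, a receptor for lipoproteins and reelin, is a further gene that ATF4 signalling can induce.

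RefSeq promoter windows, from 250 bases before a start site to 50 bases from it on, were at hand for 10 of the 10 genes, with 19 windows in all since some genes have several start sites (GRCh38.p14). The stretches below are shown because SLC7A5 and VLDLR are the genes that passed the threshold in opposite directions, and ASNS and SLC1A5 hold the core letters of the response element. Each is written 5′ to 3′ on the gene's strand, and capitals mark a match.
SLC7A5, chr16:87869508-87869657, minus strand, the 150 bases before its only listed start: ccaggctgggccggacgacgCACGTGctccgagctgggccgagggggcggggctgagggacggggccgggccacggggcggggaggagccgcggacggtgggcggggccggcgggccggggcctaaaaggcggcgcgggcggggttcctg
VLDLR, chr9:2621637-2621786, plus strand, the 150 bases before its only listed start: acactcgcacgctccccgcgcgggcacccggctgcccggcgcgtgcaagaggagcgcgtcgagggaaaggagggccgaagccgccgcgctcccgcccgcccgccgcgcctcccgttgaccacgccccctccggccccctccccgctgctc
ASNS, chr7:97872409-97872508, minus strand, the 100 bases before 1 of its 2 listed starts: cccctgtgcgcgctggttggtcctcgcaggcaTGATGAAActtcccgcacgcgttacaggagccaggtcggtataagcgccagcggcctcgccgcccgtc
SLC1A5, chr19:46784893-46784922, minus strand, from 108 to 79 bases before 1 of its 3 listed starts: gaggaagtggcTGATGCAAgctgtccaggg

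The core letters TGATGNAA, with N for any base, were looked for on both strands. They occurred in 3 of the 19 windows, 1 each of 3 genes: ASNS (first base 68 before the start), SLC1A5 (97 before) and SLC3A2 (38 after, on the opposite strand). Of all 35116 windows of this length 3.62% held them. The longer form TGATGCAAT, which contains the core, was in none of the 19 windows and in 0.236% of all. CACGTG, the E-box that MYC, MITF-family and clock factors bind, was added after results were known. It lay in 4 of the 19 windows: those of SLC7A5 (130 before the start), SLC1A5 (50 before) and ATF4 (82 or 85 before, the same site seen from neighbouring starts). Of all windows 7.26% held it. A match is a description of these letters, and its absence says nothing of sites elsewhere in a gene.

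PTPN11 served as the check of the labels. Its values were 7.96 and 8.44 with CTRL miR, 6.04 and 5.71 under SHP2 miR1, and 6.90 and 7.28 under SHP2 miR2 (deposited log2 values, as throughout). Every SHP2 miR array was below both controls, and SHP2 miR1 lay below SHP2 miR2. In the limma fit described below PTPN11 fell by 2.32 with SHP2 miR1 (SE 0.22, adjusted p = 5.48e-04), while its difference of -1.11 with SHP2 miR2 did not pass (SE 0.22, adjusted p = 0.0813). Array medians over all probe sets were between 5.23 and 5.35, and replicates correlated across genes at r = 0.985 to 0.986. Of 6 basal mammary markers measured, 3 passed the test used below when both SHP2 miRs were set against control. The keratin KRT14 was higher (1.10, SE 0.14, adjusted p = 0.0044), as was the desmosomal cadherin DSG3 (0.70, SE 0.16, adjusted p = 0.0418), and the laminin chain LAMB3 was lower (-1.07, SE 0.13, adjusted p = 0.00314). Among the 6 luminal markers the lowest adjusted p was 0.19, of MUC1. Of 23 markers of fibroblasts, endothelium, leukocytes and adipocytes, PECAM1 was higher (0.60, SE 0.14, adjusted p = 0.0422) and TEK lower (-1.38, SE 0.13, adjusted p = 8.67e-04). The monocyte marker CD14 was at 0.96 (SE 0.23, adjusted p = 0.0505) and passed for SHP2 miR1 alone (1.08, adjusted p = 0.0366). So did the endothelial marker KDR (0.60, adjusted p = 0.0418). PTPRC, found on all white blood cells, lay between 3.18 and 3.53. Array means of the 5 leukocyte markers were 4.75 to 4.85 in control, 5.15 to 5.20 under SHP2 miR1 and 4.82 to 5.13 under SHP2 miR2. Those of the basal markers were 10.01 to 10.06, 10.02 to 10.09 and 10.23 to 10.33, and those of the luminal markers 8.35 to 8.38, 8.53 to 8.68 and 8.55 to 8.58. Fibroblast markers gave 5.31 on both controls, 5.32 to 5.37 and 5.21 to 5.33, though DCN among them lay between 8.11 and 8.58. Endothelial markers gave 4.91 to 4.97, 4.77 to 4.87 and 4.88 to 4.96, and adipocyte markers 4.37 to 4.49, 4.52 to 4.61 and 4.35 to 4.37. The part of these markers in the results was not tested.

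Set against control, both SHP2 miRs together gave more SLC7A5 transcript and less VLDLR transcript, while ATF4 itself and its companions DDIT3 and TRIB3 did not pass the test. A limma fit over all 18377 genes on all 6 arrays, with Benjamini-Hochberg adjustment and a threshold of 0.05, was used for every adjusted p here. Of the 10 genes 1 rose and 1 fell, against 4.20% of all genes past the threshold (1.53% higher, 2.67% lower). The 10 were chosen with earlier results of these data known, so counts of them are descriptions. In log2 units, SLC7A5 rose by 0.92 (SE 0.12, 1.89-fold, adjusted p = 0.00469) and VLDLR fell by 1.44 (SE 0.14, 2.70-fold, adjusted p = 0.00112). By p-value they ranked 144 and 46 among all genes. The median difference of the 10 was 0.07, beside 0.02 over all genes. In RNA from whole cultures, fewer cells of a type and less RNA per cell cannot be told apart.

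**Figure D1:**
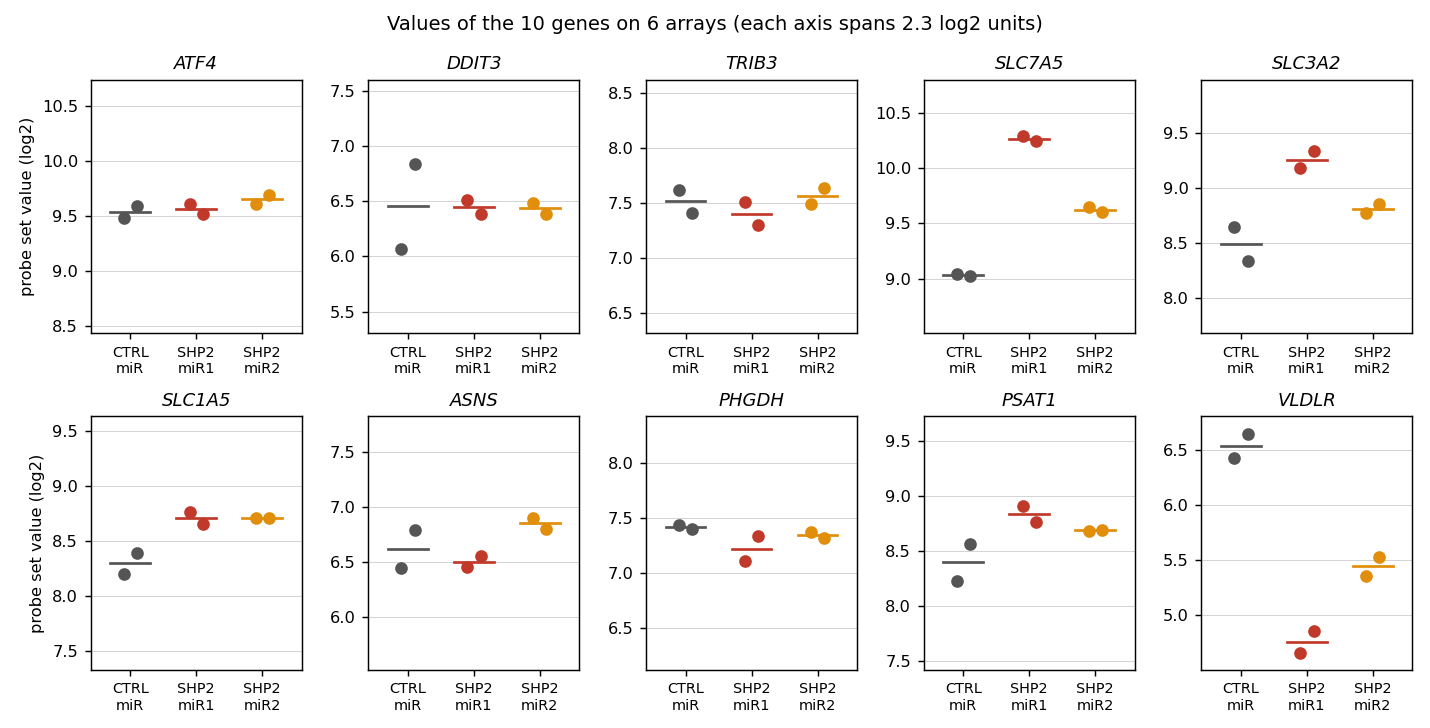
Deposited probe set values (log2) of the 10 genes; each point is an array and each bar the mean of the 2 arrays of a group, and every panel spans the same number of log2 units. SLC7A5, SLC3A2 and PSAT1 separate all 3 groups, as does VLDLR in the opposite direction. In ATF4, DDIT3, TRIB3 and ASNS the 4 SHP2 miR arrays overlap the controls.

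The transporter SLC7A5 gave the cleanest separation of the arrays among the genes that went up. Its values were 9.04 and 9.02 with CTRL miR, 10.29 and 10.25 under SHP2 miR1, and 9.65 and 9.60 under SHP2 miR2. The replicates lay within 0.05 of each other, and the 3 groups did not overlap: control was lowest, SHP2 miR1 highest and SHP2 miR2 between them. With SHP2 miR1 the gene rose by 1.24 (SE 0.14, 2.37-fold, adjusted p = 0.00160). For SHP2 miR2 the difference was 0.59 (SE 0.14, 1.51-fold), which did not pass (adjusted p = 0.147) except with a mean-variance trend in the prior (8.24e-04).

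SLC3A2 encodes the chain that brings SLC7A5 to the cell surface. Its values were 8.64 and 8.33 with CTRL miR, 9.18 and 9.33 under SHP2 miR1, and 8.77 and 8.85 under SHP2 miR2. The order of the groups was that of SLC7A5, without overlap, but the controls lay 0.31 apart and the nearest SHP2 miR2 array was 0.13 above the higher of them. With SHP2 miR1 it rose by 0.77 (SE 0.16, 1.71-fold, adjusted p = 0.0246). For both SHP2 miRs the difference of 0.55 (SE 0.14) did not pass (adjusted p = 0.0682). SHP2 miR2 alone gave 0.32 (SE 0.16, adjusted p = 0.519).

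SLC1A5, the sodium-dependent carrier of glutamine, alanine, serine and cysteine, had 8.20 and 8.39 with CTRL miR, 8.76 and 8.65 under SHP2 miR1, and 8.71 and 8.71 under SHP2 miR2. All 4 SHP2 miR arrays were above both controls, and the SHP2 miR groups overlapped each other. The differences were 0.41 for both SHP2 miRs (SE 0.13, 95% interval 0.12 to 0.71, adjusted p = 0.122), 0.41 for SHP2 miR1 and 0.42 for SHP2 miR2. None passed, at adjusted p-values of 0.123 and 0.352 for the single SHP2 miRs. Between the SHP2 miRs SLC1A5 differed by 0.01 (95% interval -0.33 to 0.35), a value that depended on the probe set: with its probe sets averaged the difference was -0.19, lower with SHP2 miR2.

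VLDLR was the gene with the widest range of the 10, at 1.99 log2 units over the 6 arrays. Its values were 6.43 and 6.65 with CTRL miR, 4.66 and 4.86 under SHP2 miR1, and 5.36 and 5.53 under SHP2 miR2. No 2 groups overlapped, with control highest and SHP2 miR1 lowest. It fell by 1.78 with SHP2 miR1 (SE 0.16, 3.43-fold, adjusted p = 5.29e-04) and by 1.09 with SHP2 miR2 (SE 0.16, 2.13-fold, adjusted p = 0.0294). It was the only one of the 10 to pass with SHP2 miR2, where 0.370% of all genes passed. With SHP2 miR1, SLC7A5, SLC3A2 and VLDLR passed, 3 of the 10, where 8.60% of all genes did. Both comparisons use the same control arrays.

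ATF4 had 9.48 and 9.59 with CTRL miR, 9.61 and 9.52 under SHP2 miR1, and 9.61 and 9.69 under SHP2 miR2. Its range over all arrays, 0.21, was the narrowest of the 10. Both SHP2 miR2 arrays were above the controls, by 0.02 and 0.10, and the SHP2 miR1 arrays overlapped them. The difference for both SHP2 miRs was 0.07 (SE 0.13, 95% interval -0.21 to 0.36, adjusted p = 0.784). This interval rests on the spread among these arrays, which could be purely technical, so a larger change between cultures is not excluded.

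DDIT3 (CHOP), a bZIP factor that ATF4 induces under prolonged stress, had 6.07 and 6.84 with CTRL miR, 6.51 and 6.39 under SHP2 miR1, and 6.49 and 6.39 under SHP2 miR2. The controls were the lowest and the highest of the 6 arrays, and all 4 SHP2 miR arrays lay between them. The difference was -0.01 with an SE of 0.20, the largest SE of the 10 (95% interval -0.46 to 0.44, adjusted p = 0.988). Without CTRL miR replicate 1 or 2 its value ran from -0.39 to 0.37, so these arrays do not fix its direction.

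TRIB3, a pseudokinase that ATF4 and DDIT3 induce and that restrains both, had 7.62 and 7.41 with CTRL miR, 7.51 and 7.30 under SHP2 miR1, and 7.49 and 7.64 under SHP2 miR2. The 3 groups overlapped. The difference was -0.03 (SE 0.14, 95% interval -0.35 to 0.28, adjusted p = 0.928). Its sign, and that of DDIT3, turned under quantile or cyclic loess normalization.

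Of the enzymes, ASNS, which makes asparagine from aspartate and glutamine, had 6.44 and 6.79 with CTRL miR, 6.45 and 6.55 under SHP2 miR1, and 6.90 and 6.80 under SHP2 miR2. The controls spanned the SHP2 miR1 values, and both SHP2 miR2 arrays were above them by at most 0.11. The difference for both SHP2 miRs was 0.06 (SE 0.14, adjusted p = 0.852). SHP2 miR1 gave -0.11 and SHP2 miR2 0.23, and the difference between the SHP2 miRs, 0.34, did not pass (95% interval -0.03 to 0.72, adjusted p = 0.317).

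PHGDH and PSAT1 catalyse consecutive steps of serine synthesis from a glycolytic intermediate. The differences of their transcripts from control had opposite signs, and neither passed. PHGDH had 7.44 and 7.40 with CTRL miR, 7.11 and 7.34 under SHP2 miR1, and 7.38 and 7.32 under SHP2 miR2. All 4 SHP2 miR arrays were below both controls, the nearest by 0.02, and the difference was -0.13 (SE 0.13, adjusted p = 0.607). Its 95% interval of -0.43 to 0.17 included 0, so the direction of PHGDH is not fixed. PSAT1 had 8.23 and 8.56 with CTRL miR, 8.91 and 8.76 under SHP2 miR1, and 8.68 and 8.69 under SHP2 miR2. All 4 were above both controls, while the controls differed by 0.33, and the difference was 0.37 (SE 0.14, 95% interval 0.05 to 0.69, adjusted p = 0.186). Neither gene passed in any of the 3 comparisons with control. In all, 4 of the 10 genes (SLC7A5, SLC3A2, SLC1A5 and PSAT1) had every SHP2 miR array above both controls and 2 (VLDLR and PHGDH) had every one below, against 12.6% and 13.6% of all genes.

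**Figure D2:**
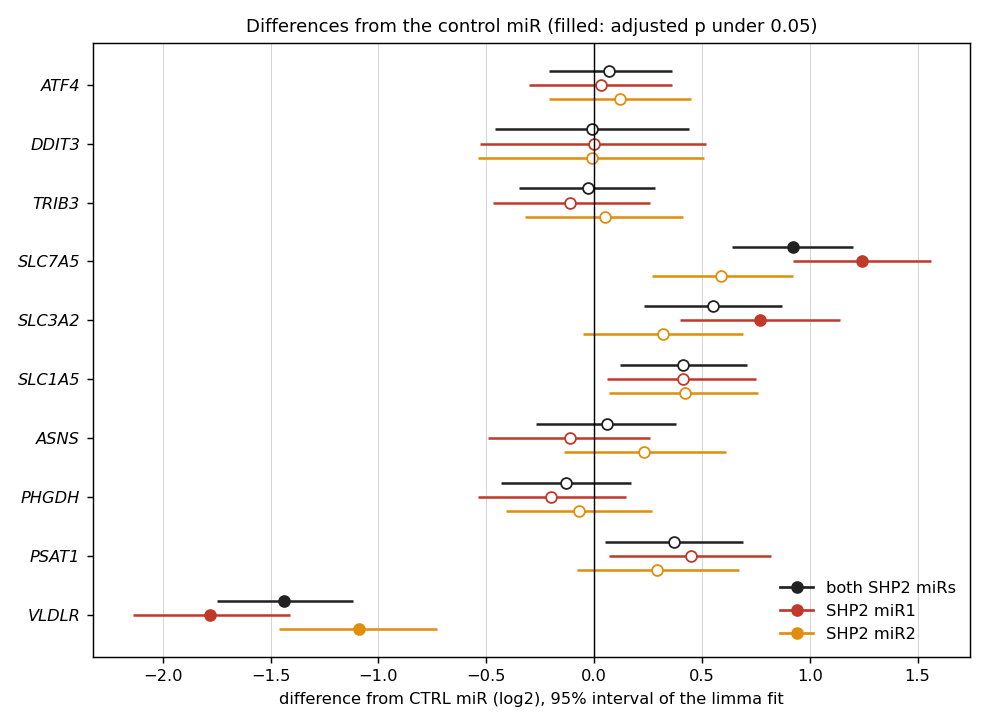
Difference from CTRL miR (log2) of each gene for both SHP2 miRs, SHP2 miR1 and SHP2 miR2, with 95% intervals of the limma fit; filled points have an adjusted p under 0.05. SLC7A5 was past the threshold for both SHP2 miRs and SHP2 miR1, SLC3A2 for SHP2 miR1, and VLDLR in all 3; the other 7 genes have open points throughout.

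The SHP2 miRs were also compared with each other, where the control arrays play no part in the difference. Of the 10 genes 0 passed in limma, against 0.190% of all genes, and 3 had an unadjusted p under 0.05, against 17.7% of all genes. These were SLC7A5, which was lower with SHP2 miR2 than with SHP2 miR1 by 0.65 (95% interval of the signed difference -0.97 to -0.33, adjusted p = 0.105), VLDLR, which was higher by 0.68 (0.32 to 1.05, adjusted p = 0.117), and SLC3A2, at -0.45 (-0.82 to -0.08, adjusted p = 0.218). In these 3 genes and PSAT1, as in PTPN11, the SHP2 miR1 arrays were farther from control than every SHP2 miR2 array. The 3 genes were picked by this same comparison, so their order is no separate result. The share of all genes with this order was not counted. PTPN11 itself differed by 1.21 (0.73 to 1.70, adjusted p = 0.0645). Besides SLC7A5, VLDLR and SLC3A2, the intervals of the other 7 genes all included 0, which does not show that the SHP2 miRs act alike on them. With a mean-variance trend in the prior, SLC7A5 passed in this comparison (adjusted p = 5.72e-04).

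VLDLR stayed past the threshold for both SHP2 miRs and for SHP2 miR1 with any array left out, at adjusted p-values of at most 0.0302 and 0.0113. For SHP2 miR2 it missed without either control (0.175 without replicate 1, 0.243 without replicate 2) and without either SHP2 miR2 array (0.204 without replicate 1, 0.149 without replicate 2). SLC7A5 kept its size for both SHP2 miRs, between 0.91 and 0.93, but missed the threshold without CTRL miR replicate 1 (adjusted p = 0.0516) or replicate 2 (0.0743). For SHP2 miR1 it passed with any array left out (at most 0.0240). SLC3A2 missed for SHP2 miR1 without CTRL miR replicate 2 (0.62, adjusted p = 0.175) and without SHP2 miR1 replicate 1 (0.0805) or replicate 2 (0.118). Other settings moved calls in the opposite direction: with a mean-variance trend in the prior SLC3A2, SLC1A5 and PSAT1 passed for both SHP2 miRs as well (0.00244, 0.0140 and 0.0369), and with dim genes left out SLC3A2 did (0.0414).

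**Figure D3:**
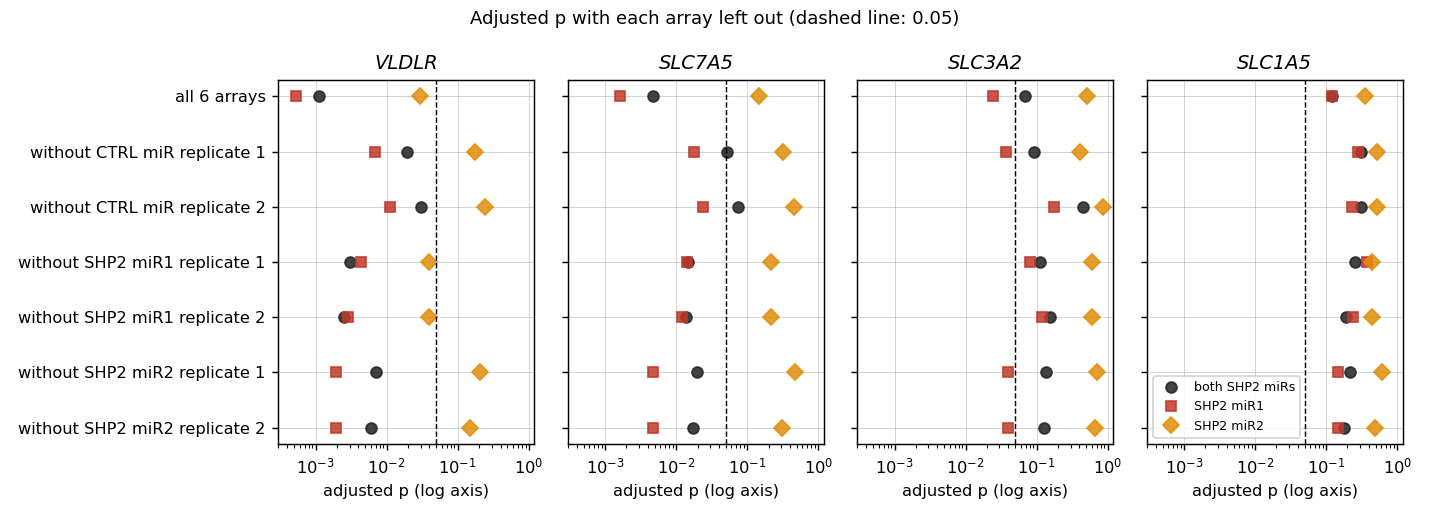
Adjusted p (log axis) of VLDLR, SLC7A5, SLC3A2 and SLC1A5 in the 3 comparisons with CTRL miR, with all 6 arrays and with each array left out; the dashed line is the threshold of 0.05. VLDLR stays left of the line for both SHP2 miRs and SHP2 miR1, SLC7A5 crosses it for both SHP2 miRs without either control, and SLC1A5 lies right of it throughout.

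Around these 10 genes, 10 lists of neighbouring pathways held 240 distinct measured genes. The lists were chosen with earlier results of these data known, so the shares below are descriptions and no test of the pathways. For both SHP2 miRs 12 of the 240 genes were higher and 11 lower, which is 9.58%, against 4.20% of all genes. The same 4.20% is the background for the counts of each list below. SHP2 miR1 gave 16 higher and 26 lower, 17.5%, against 8.60% of all genes. For SHP2 miR2 alone 2 passed, 0.833% against 0.370%: GLUL, which was higher, and VEGFA, which was lower.

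Transporters besides these 3 moved in both directions. Of 33 measured transporters of amino acids other than those above, 2 rose and 1 fell for both SHP2 miRs, and the list median was -0.03. SLC43A2 (LAT4), a facilitative carrier of branched-chain amino acids and phenylalanine, rose by 0.78 (SE 0.13, 1.71-fold, adjusted p = 0.0133), with 6.18 and 6.13 in control, 7.28 and 7.15 under SHP2 miR1 and 6.75 and 6.57 under SHP2 miR2. The groups fell in the order seen for SLC7A5. SLC1A3, a glutamate and aspartate carrier of the SLC1A5 family, rose by 0.72 (SE 0.13, adjusted p = 0.0196). SLC38A9, the lysosomal arginine sensor, fell by 0.62 (SE 0.14, adjusted p = 0.0453). Without either control the 3 genes no longer passed, with adjusted p-values of up to 0.149, 0.177 and 0.361. SLC1A3 also missed without replicate 2 of either SHP2 miR (0.0576 and 0.0547), and SLC38A9 without any SHP2 miR array, under cyclic loess normalization (0.0561) and with array weights (0.0534).

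Enzymes that make and use glutamine, glutamate and their relatives moved in both directions. Of 21 measured, 3 rose and 2 fell, with a median of 0.01. GLUL, glutamine synthetase, rose by 1.17 (SE 0.13, 2.25-fold, adjusted p = 0.00172). Its values were 10.33 and 10.40 in control, 11.63 and 11.56 under SHP2 miR1 and 11.50 and 11.44 under SHP2 miR2, so the SHP2 miR arrays stood together, more than 1 unit above control. GLUL also passed for SHP2 miR2 alone (1.10, adjusted p = 0.0181), a comparison in which 0 genes passed once either control was left out, and for both SHP2 miRs it passed with any array left out (at most 0.0329). ASS1, argininosuccinate synthase, rose by 0.90 (SE 0.14) and PRODH, which starts proline breakdown, by 0.65 (SE 0.13). GFPT1, which spends glutamine on hexosamine synthesis, fell by 0.60 (SE 0.13). Their adjusted p-values were 0.00924, 0.0301 and 0.0363, and the second gene that fell was PPAT, of purine synthesis (-0.58, adjusted p = 0.0483), which the naming rule leaves out. ASS1, PRODH and GFPT1 no longer passed without either control, reaching 0.0773, 0.286 and 0.280. PRODH and GFPT1 missed with any array left out, and GFPT1 under quantile (0.0569) and cyclic loess (0.0567) normalization.

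Among 19 enzymes of serine, glycine and one-carbon metabolism besides PHGDH and PSAT1, 2 rose and 0 fell, with a median of -0.04. Both act on glycine: GLDC, the decarboxylase of the glycine cleavage system, rose by 1.34 (SE 0.23, 2.53-fold, adjusted p = 0.0137) and SHMT1, which interconverts serine and glycine in the cytosol, by 0.83 (SE 0.14, adjusted p = 0.0120). Without CTRL miR replicate 1 they reached adjusted p-values of 0.0700 and 0.0586, and without replicate 2 0.210 and 0.155.

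The other genes known to answer ATF4 or amino acid shortage gave 1 higher and 1 lower of 36, where 4.20% of all genes passed. Their median was -0.01. GDF15, a stress cytokine, rose by 0.79 (SE 0.14, adjusted p = 0.0187). VEGFA, an angiogenic factor that low oxygen also induces, fell by 1.09 (SE 0.13, 2.13-fold, adjusted p = 0.00279) and passed for SHP2 miR2 alone too (-0.99, adjusted p = 0.0321, with the same dependence on the controls). VEGFA missed without CTRL miR replicate 2 (0.0558), and GDF15 without either control (up to 0.209) or SHP2 miR1 replicate 1 (0.0520). Of the cytosolic aminoacyl-tRNA synthetases, which charge tRNAs and include ATF4 targets, 0 of 20 passed in limma and 3 had an unadjusted p under 0.05, where 20.9% of all genes did. Of the 20, 15 lay below 0 (median -0.14), as did 47.2% of all genes. With SHP2 miR1 18 lay below 0 (median -0.26), as did 45.9% of all genes. With SHP2 miR2 11 did (median -0.02), beside 51.8% of all genes. The median for both SHP2 miRs was -0.20 without CTRL miR replicate 1 and -0.08 without replicate 2. GARS1, the glycyl-tRNA synthetase, had -0.50 (SE 0.14, adjusted p = 0.0796) and RARS1, the arginyl-tRNA synthetase, -0.43 (SE 0.15, adjusted p = 0.149). With dim genes left out GARS1 passed (0.0474), and with a mean-variance trend both passed (0.00357 and 0.0179).

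Of the endoplasmic reticulum stress and chaperone genes, 22 of 23 measured had a negative difference, with a median of -0.23 beside 0.02 over all genes, of which 47.2% lay below 0. The median was -0.32 without CTRL miR replicate 1, and -0.14, with 20 of 23 below 0, without replicate 2. Under quantile, cyclic loess and median-centred normalization 21 or 22 of the 23 lay below 0. All 23 stayed when dim genes were left out, where the median over all genes was -0.03. With SHP2 miR1 22 lay below 0 (median -0.29), beside 45.9% of all genes. With SHP2 miR2 18 did (median -0.17), beside 51.8% of all genes. With dim genes kept, 1 of the 23 passed for both SHP2 miRs. ERO1A, the oxidase that drives disulphide formation, fell by 0.93 (SE 0.14, 1.91-fold), at an adjusted p of 0.00674, and missed without CTRL miR replicate 1 (0.0529) or replicate 2 (0.109). The list of eIF2, its kinases and its regulators also held TRIB1 and TRIB2, which are none of these. It shared PPP1R15A with the list of other genes known to answer ATF4. Of its 21 measured genes 1 rose and 0 fell (median -0.11), and the 1 that rose was not eIF2, a kinase of it or a regulator of it. This was TRIB2, a relative of TRIB3, at 0.57 (SE 0.13, adjusted p = 0.0491), which missed the threshold in 7 of 9 other settings (up to 0.0758) and with any array left out (up to 0.320).

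In the mTORC1 and amino acid sensing list, 2 of 37 rose and 1 fell, with a median of -0.03. DEPTOR, an inhibitory mTOR partner, rose by 0.98 (SE 0.14, 1.97-fold, adjusted p = 0.00692), with 4.74 and 5.05 in control, 6.01 and 6.19 under SHP2 miR1 and 5.68 and 5.63 under SHP2 miR2. All SHP2 miR arrays were above both controls. SESN1, a sestrin that restrains mTORC1, rose by 0.76 (SE 0.13, adjusted p = 0.0135), and the fall was that of SLC38A9. DEPTOR missed without CTRL miR replicate 1 (0.0673) and SESN1 without either control (up to 0.148).

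In the list of bZIP factors related to ATF4, 1 of 29 genes rose and 4 fell, with a median of -0.02. CEBPD, a C/EBP protein, rose by 0.72 (SE 0.14, adjusted p = 0.0225). MAFG, a small MAF protein, fell by 0.78 (SE 0.13, adjusted p = 0.0136), and the AP-1 subunits JUN and FOSL1 fell by 0.68 and 0.64 (SE 0.13 each, adjusted p = 0.0250 and 0.0304). CEBPZ, listed by its symbol though it is no bZIP factor, also fell (-0.79, SE 0.17, adjusted p = 0.0357). The naming rule, which stops at 4 genes a list, leaves it out. The 4 other genes missed without either control, where the adjusted p of CEBPD reached 0.209, of MAFG 0.173, of JUN 0.238 and of FOSL1 0.138. The call on MAFG rested on its brighter probe set, and with its probe sets averaged the difference was -0.18 (adjusted p = 0.477). FOSL1 missed under quantile (0.0563) and cyclic loess (0.0526) normalization and with any array left out, and CEBPD and JUN missed without most SHP2 miR arrays as well.

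Most relatives and partners of VLDLR did not pass. Of 18 measured lipoprotein receptors and partners, 2 fell and 0 rose, and the median was 0.14 (-0.02 over the 14 genes kept when dim genes were left out). DAB2, an endocytic adaptor that binds the tails of this receptor family, fell by 0.99 (SE 0.15, 1.98-fold, adjusted p = 0.00771) and LRP12 by 0.83 (SE 0.18, adjusted p = 0.0358). DAB2 had 6.03 and 6.04 in control, 4.19 and 4.59 under SHP2 miR1 and 5.69 and 5.72 under SHP2 miR2, so most of its fall was with SHP2 miR1. Without either control DAB2 and LRP12 missed, reaching 0.107 and 0.293, and LRP12 also without most SHP2 miR arrays.

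**Figure D4:**
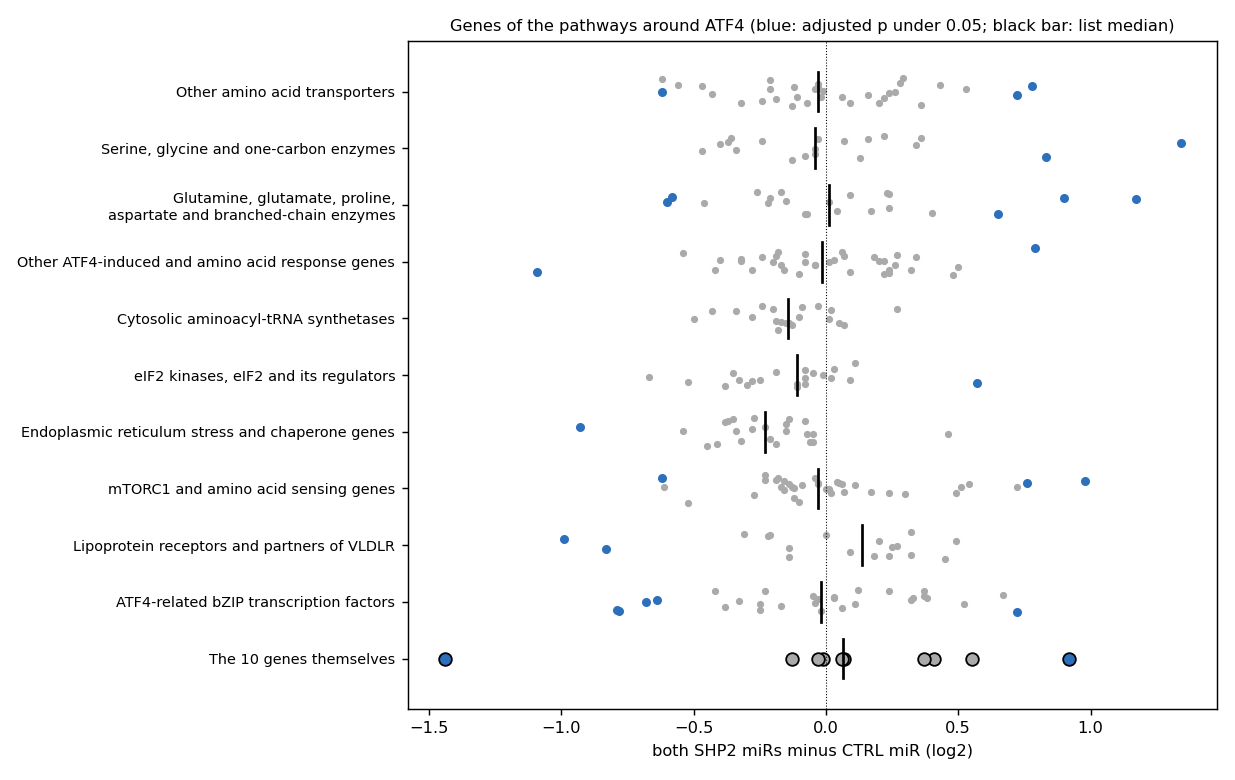
Difference for both SHP2 miRs against CTRL miR (log2) of each measured gene in the 10 lists and of the 10 genes themselves (bottom row); points are genes, spread vertically for sight, blue points have an adjusted p under 0.05 and black bars are medians. The medians lie between -0.23 and 0.14, with chaperone genes lowest and lipoprotein receptors highest.

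For the 3 genes that varied most over the arrays, the genes of most similar pattern were sought by the root mean square difference over the 6 arrays, after centring each gene on its mean. This is a description over 6 arrays of 3 groups and says nothing of shared function. VLDLR (SD 0.81) was most like EFNB2, the ligand ephrin-B2, the SMAD co-repressor SKIL and the sulphate transporter SLC26A2, at root mean square differences of 0.11, 0.12 and 0.12, where the median over all genes was 0.77. SLC7A5 (SD 0.56) was most like GGT5, a gamma-glutamyltransferase, the bZIP repressor NFIL3 and SMPDL3B, at 0.06, 0.07 and 0.08 (median 0.52). SLC3A2 (SD 0.36) was most like THEM6, CEL and MYOC, at 0.04, 0.05 and 0.06 (median 0.36). MYOC, with values of 3.27 to 4.15, lay in the dim range of the arrays. SLC7A5 and SLC3A2 were not among each other's 3 nearest genes.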

How the data were processed

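Probe set values of 6 Affymetrix HuGene-1_0-st-v1 arrays, 2 per group, were taken as the log2 values the authors deposited, the base being read from the range of the values. The submitters' processing notes name R 2.10 and oligo 1.8; how background was corrected and values normalized and summarized is not given in the sources used here, nor is a genome build. Of 28869 probe sets 19310 had 1 symbol, 1752 several (not named) and 7807 none; 19279 of the 19310 matched RefSeq by gene identifier. Keeping the brightest probe set left 18377 genes.

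limma 3.58.1 in R 4.3.3 fitted 1 mean per group to all 6 arrays (3 residual and 6.10 prior degrees of freedom), with two-sided tests, and was first tested on simulated data. The members and lists were chosen with earlier results of these data known. Named were all 10 genes, PTPN11, up to 4 passing genes per list by smallest p (or 2 as values), and 3 nearest genes for each of the 3 most variable. Settings tried were a trended or robust prior, a filter on dim genes, 3 normalizations, averaged probe sets, weights per array, separate fits of the groups compared, the replicate number as a block and leaving out each array. The number of arrays limits precision.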

Additional observations from a re-analysis of the deposited data

Results flagged for a closer look

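Among the 240 pathway genes DAB2 alone differed between the SHP2 miRs past the threshold, with SHP2 miR2 higher than SHP2 miR1 by 1.32 on the log2 scale (SE 0.17, limma adjusted p = 0.0304). With an array left out the difference lay between 1.12 and 1.52, and in 5 of 6 cases it missed the threshold, at up to 0.186 without SHP2 miR2 replicate 1. It also missed with the replicate block (0.0565) and with only the SHP2 miR groups fitted (0.0789).

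A second probe set of SLC1A5, dimmer and not used above, was also higher on all 4 SHP2 miR arrays than on both controls. Its values were 5.51 and 5.58 with CTRL miR, 6.06 and 6.14 under SHP2 miR1, and 5.74 and 5.67 under SHP2 miR2, a difference of 0.36. It separated the SHP2 miRs, which the brighter SLC1A5 probe set did not.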

How the results depend on the processing

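With all arrays, 771 genes passed for both SHP2 miRs, 1581 for SHP2 miR1, 68 for SHP2 miR2 and 35 between the SHP2 miRs, and 2, 3, 1 and 0 of the 10 genes. A mean-variance trend in the prior gave 1793, 2786, 367 and 446, and 5, 5, 2 and 1 of the 10 genes. For SHP2 miR2 and between the SHP2 miRs, leaving out dim genes gave 154 and 95. Between the SHP2 miRs, centring medians gave 69, array weights 55 and fitting only those groups 12. The replicate block gave 37 for SHP2 miR2 and 12 between the SHP2 miRs, changed no call on the 10 genes, and rests on numbers that do not pair the arrays, since deviations of same-numbered arrays correlated at 0.07, 0.14 and 0.01. For SHP2 miR1, 489 genes were higher and 1092 lower (30.9% higher), and 378 and 1536 with medians centred (19.7%). With 1 array left out, 108 to 512, 269 to 1308, 0 to 60 and 0 to 15 genes passed, and 1 to 2, 2 to 3, 0 to 1 and 0 of the 10; a lone array was then assumed to vary like the other groups. Among the 10 genes, signs turned as follows. Pathway genes picked by the naming rule were recomputed for both SHP2 miRs (DAB2 also between the SHP2 miRs) and kept their signs. PPAT, CEBPZ, PTPN11, the cell type markers and the genes of similar pattern were not recomputed. Under quantile and cyclic loess normalization, DDIT3 was at 0.06 and 0.03 for both SHP2 miRs, 0.09 and 0.05 for SHP2 miR1 and 0.03 and 0.01 for SHP2 miR2. TRIB3 was at 0.04 and 0.04 for both and 0.02 and 0.01 for SHP2 miR1, and SLC1A5 between the SHP2 miRs at -0.06 and -0.09, and at -0.19 with probe sets averaged. With medians centred, ATF4 was at -0.05 for SHP2 miR1 and DDIT3 at 0.08 between the SHP2 miRs. With an array left out, for both SHP2 miRs DDIT3 ran from -0.39 to 0.37, TRIB3 from -0.13 to 0.07 and ASNS from -0.11 to 0.23. For SHP2 miR1 ATF4 ran from -0.02 to 0.08, DDIT3 from -0.39 to 0.38 and ASNS from -0.29 to 0.06. For SHP2 miR2 DDIT3 ran from -0.40 to 0.37 and TRIB3 from -0.06 to 0.15. Between the SHP2 miRs DDIT3 ran from -0.07 to 0.05 and SLC1A5 from -0.05 to 0.07. The cause of these changes was not tested. SLC7A5 and VLDLR kept their direction in all 4 comparisons under every setting run. Of 1117 recomputed values, 932 kept direction and side of the threshold, or for counts stayed within 1.5 times. With 2 arrays a group, small changes cannot be resolved.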
